A study of Mus musculus with 4 samples.

Results

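Fatty acid synthesis and desaturation were followed through 10 genes in NIH-3T3:Per2-Luc fibroblasts, a mouse line with a *Per2* promoter that drives luciferase. The genes were *Srebf1*, *Acly*, *Acaca*, *Fasn*, *Elovl6*, *Elovl5*, *Scd1*, *Scd2*, *Fads1* and *Fads2*, chosen by name, and every non-control probe that carried such a name was taken. This gave 15 of the 39429 probes and 10 of the 30175 gene names on the array. RNA came from 4 conditions with 1 array each on a single slide: cells without H2O2 (0 mM, labelled 4 h), and cells taken at 4 h, 20 h or 32 h, counted from a cOS-pulse with 5 mM H2O2 that lasted 10 min. All cells carried the reporter. Per the paper, the control cells were given fresh medium in place of H2O2, which it calls a comparably weak resetting stimulus. The pulsed cells at 20 h and 32 h had no array without H2O2 of their own hour, so every time point was set against the same control. The 20 h and 32 h ratios thus differ in hour as well as in H2O2, and these cannot be told apart. There were no replicates. Each difference therefore has no replicate check, no test could be run, and the error given with a log2 ratio is the spot error of the scanner software, which covers the reading of the spot and not the spread between cultures.

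Fatty acid synthesis starts in the cytosol from citrate. ATP citrate lyase (*Acly*) cuts citrate into acetyl-CoA, acetyl-CoA carboxylase (*Acaca*) turns acetyl-CoA into malonyl-CoA in the committed step, and fatty acid synthase (*Fasn*) joins these units into palmitate with NADPH as the reductant. Elongases (*Elovl6* for saturated and monounsaturated chains, *Elovl5* for polyunsaturated chains) then lengthen the chain, while stearoyl-CoA desaturases (*Scd1*, *Scd2*) and the fatty acid desaturases of the polyunsaturated series (*Fads1*, *Fads2*) insert unsaturated bonds. The transcription factor SREBP1, encoded by *Srebf1*, is known to drive many of these genes, and its relative SREBP2 (*Srebf2*) mainly drives cholesterol synthesis.

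All 15 probes were well above background on all 4 arrays, so each ratio below was measured on both sides. Signals are given as log2 of the intensity relative to the 75th percentile over the probes of each array, and a log2 ratio is the difference of such signals. The level of a probe depends on its sequence, so levels were compared between arrays and not between probes. Between 20762 and 23295 probes per array were well above background, the most at 4 h, and no spot was saturated. In bulk RNA, fewer cells that express a gene and less RNA per cell cannot be told apart. The labelled cell type was checked by its markers: all 10 fibroblast markers, *Col1a1*, *Vim* and *Pdgfrb* among them, were well above background on all 4 arrays. Some of them were 2-fold below the control, with a log2 ratio of -1.35 for *Pdgfrb* at 4 h and of -1.39, -1.06 and -1.02 for *Thy1*, *Col1a1* and *Col3a1* at 20 h, and their part in the values below was not tested. Of 8 adipocyte markers, 3 were well above background on all 4 arrays, while *Plin1*, *Cidec*, *Lep* and *Cfd* were not on any.

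At 20 h and 32 h nearly the whole group lay above the control, while at 4 h most probes lay below it and a pair stood far above. At 32 h all 15 probes were above the control, 14 of them by more than the spot error, as were 21% of 19969 measured probes, with a median log2 ratio of 0.67 and a range from 0.17 to 1.29. At 20 h 14 probes were above the control, 13 of them by more than the spot error against 20.5% of 20448 measured probes, and the median was 0.37. At 4 h 10 probes were below the control, 7 of them by more than the spot error against 29.3% of 20392 measured probes, and the median was -0.15. With normexp background correction these counts were 12, 9 and 6, and with the 5 other scalings the count at 4 h was 9 to 12. Those 5 scalings moved the median of all measured probes at 4 h as well, by -0.12 to -0.40. The shares of all probes below the control with these settings are not given here. Over all measured probes of the array, meaning those well above background on both sides of a ratio, the medians were 0.17 at 4 h, -0.0034 at 20 h and -0.0062 at 32 h.

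**Figure D1:**
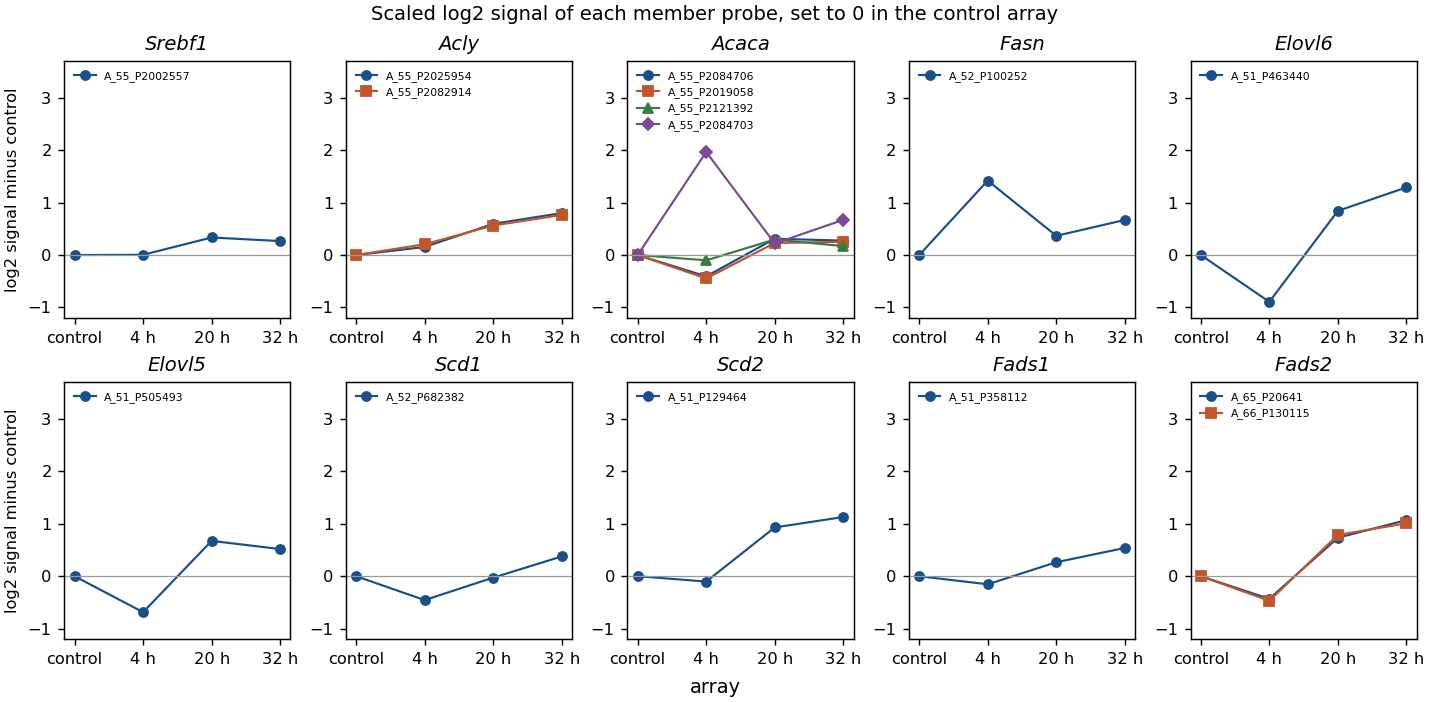
Scaled log2 signal of each of the 15 probes on the 4 arrays, with the control array set to 0; each panel is 1 gene, each line 1 probe, and each point 1 array. *Elovl6* was at -0.89 at 4 h and at 1.29 at 32 h, while *Fasn* and 1 of the 4 *Acaca* probes were highest at 4 h.

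Past 2-fold, the 4 h array had 2 member probes higher and 0 lower, against 8.63% of 20392 probes that were at least 2-fold higher and 7.91% that were at least 2-fold lower. At 20 h none of the 15 was 2-fold apart in either direction, where 0.704% of 20448 probes were higher and 2.05% lower. At 32 h 4 member probes of 3 genes were at least 2-fold higher and 0 lower, where 1.05% of 19969 probes were higher and 1.5% lower. Of these 4, *Fads2* probe A_66_P130115 was below 2-fold with 2 of the 5 other scalings (lowest log2 ratio 0.99), and with normexp background correction only *Elovl6* and *Scd2* were past 2-fold. That correction lowered the share over the whole array too, to 0.51% of probes at least 2-fold higher at 32 h. The choice of scaling mattered at 4 h: the calls over all probes were 1760 higher and 1614 lower with the 75th percentile, and 706 higher and 3306 lower when the arrays were scaled by their spike-in controls. Spike-in scaling moved the median of all probes by -0.40 at 4 h, by 0.20 at 20 h and by 0.16 at 32 h. The median of the member probes lay -0.33, 0.37 and 0.68 from that of all probes, and -0.45, 0.35 and 0.66 from it with quantile normalization. With each of 5 other scalings 14 probes stayed above the control at 20 h and 15 at 32 h. At 4 h 12 of the 15 kept their sign with all 5, and *Srebf1* and both *Acly* probes did not.

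**Figure D2:**
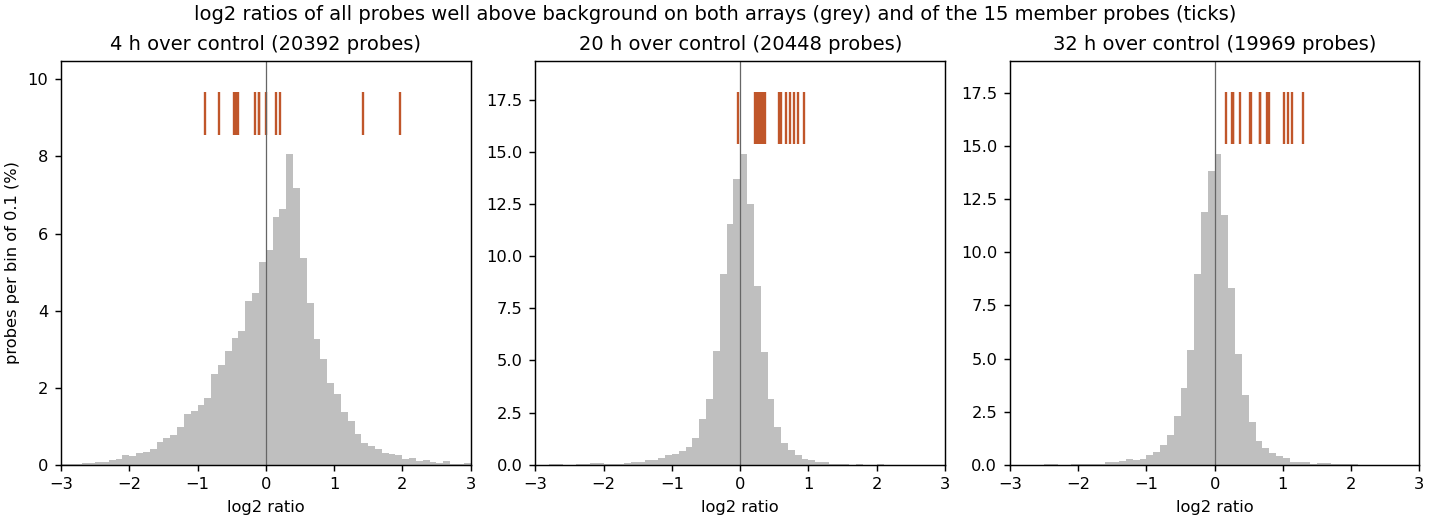
Percent of probes per log2 ratio bin of 0.1 for every probe with a measured ratio (grey bars), with the 15 member probes as ticks above; panels show 4 h, 20 h and 32 h over the control. The ticks lie on both sides of 0 at 4 h and to the right of 0 at 32 h.

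*Srebf1*, the regulator, was measured by a single probe on mm9 chr11:60012664-60012723, minus strand. Its signal was -2.59 in the control, -2.58 at 4 h, -2.25 at 20 h and -2.32 at 32 h. The control and 4 h arrays were equal within the spot error, and the later arrays were slightly higher. The log2 ratios were 0.0049 ± 0.22, 0.33 ± 0.22 and 0.27 ± 0.22 (spot error), so the 4 h value has no direction, and the other 5 scalings put it between -0.40 and -0.12. On the opposite strand, 38 bases away, lies a probe of *Rai1*, whose log2 ratios of 0.27, -0.14 and -0.09 did not follow those of *Srebf1*.

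Among 17295 other probes with a gene name of their own that were well above background on all 4 arrays, probes of *Man2b2* and *Cerk* were among the closest to *Srebf1* over the 3 ratios to the control, with root mean square differences of 0.023 and 0.024. A flat profile such as this was common, since 1816 probes lay within 0.2 of it. Among the members, an *Acaca* probe (A_55_P2121392) was closest at 0.085, followed by *Fads1* at 0.19, and the farthest were another *Acaca* probe (A_55_P2084703) at 1.16 and *Fasn* at 0.85.

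*Acly* was higher at each later hour on both of its probes, which lie 27844 bases apart on the minus strand of mm9 chr11. The brighter probe (A_55_P2025954) had signals of 3.80 in the control, 3.96 at 4 h, 4.40 at 20 h and 4.60 at 32 h. The dimmer probe (A_55_P2082914) had -3.18, -2.97, -2.62 and -2.41 in the same order. Both probes had the same order of arrays, with the control lowest and 32 h highest. At 32 h the log2 ratios were 0.80 ± 0.20 and 0.76 ± 0.26, at 20 h 0.60 ± 0.20 and 0.56 ± 0.25, and at 4 h both were within the spot error (0.15 ± 0.20 and 0.21 ± 0.26), and with 4 of the 5 other scalings below 0.

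*Acaca* had 4 probes, and they differed in direction at 4 h. All lie on the plus strand of mm9 chr11, and their first 30 of 60 bases are shown because 1 of them departs from the rest while another pair reads nearly the same letters. Capitals mark the 29 shown bases that this pair shares, and the pair overlaps over 59 bases in all.
A_55_P2019058: gCTTCAGTCCAATGCACTCTTCTCACGTTT
A_55_P2084706: CTTCAGTCCAATGCACTCTTCTCACGTTTt
A_55_P2121392: tcataattgggtctgtgtctgaagacaact
A_55_P2084703: tgtgatagaggagaacatcaaatacatcag
The first lies at chr11:84215093-84215152, the second at chr11:84215094-84215153, the third far upstream at chr11:84009021-84009080, and the last at chr11:84211638-84211697, 3395 bases before the overlapping pair.

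The overlapping probes A_55_P2019058 and A_55_P2084706, which are not independent of each other, read 2.38 and 2.36 in the control, 1.93 and 1.95 at 4 h, 2.61 and 2.67 at 20 h, and 2.63 and 2.64 at 32 h. They were lowest at 4 h, with log2 ratios of -0.45 ± 0.20 and -0.41 ± 0.20, and slightly above the control later, with 0.23 and 0.31 at 20 h and 0.25 and 0.27 at 32 h (± 0.20 each). The far upstream probe A_55_P2121392 was dim and nearly flat, with signals of -3.80, -3.90, -3.51 and -3.63 and log2 ratios of -0.10 ± 0.31, 0.30 ± 0.29 and 0.17 ± 0.31.

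The probe A_55_P2084703 went the other way at 4 h. It read -4.53 in the control, -2.57 at 4 h, -4.31 at 20 h and -3.86 at 32 h, so the 4 h array stood apart from the others. Its log2 ratio at 4 h was 1.97 ± 0.32, which is 3.91-fold, and 258 of 20392 probes were at least as high. With the 5 other scalings it was between 1.56 and 1.84. At 20 h it was within the spot error of the control (0.22 ± 0.36), and at 32 h it was above it (0.67 ± 0.36). This was also the dimmest of the 15 probes in the control, with an intensity of 47.9 units there and 154 units at 4 h. Its control signal of -4.53 lay close to the lowest signal called well above background on that array, -4.76. The 4 *Acaca* probes thus spanned 2.41 at 4 h on the log2 scale. Of 3688 gene names with at least 2 measured probes, 58 (1.57%) spanned at least 2, and the median span was 0.25. The probes of *Acly* and of *Fads2* spanned 0.052 and 0.038. Which transcripts of *Acaca* each probe reads was not analysed here.

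*Fasn* was the other member past 2-fold at 4 h, again on a single dim probe, whose first 30 of 60 bases are shown since the *Fasn* values rest on it alone.
A_52_P100252: attggtagggtacaaaggtgttcagaggat
It lies at mm9 chr11:120667666-120667725, minus strand. Its signal was -2.12 in the control, -0.70 at 4 h, -1.75 at 20 h and -1.45 at 32 h. The control was lowest and the 4 h array highest. The log2 ratio at 4 h was 1.42 ± 0.21 (2.68-fold), and 680 of 20392 probes were at least as high, while with the 5 other scalings it was between 1.02 and 1.39. At 20 h it was 0.37 ± 0.21 and at 32 h 0.67 ± 0.21.

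On that same 4 h array a few genes of other cell types were also high. The fatty acid binding protein *Fabp4*, an adipocyte marker, had a log2 ratio of 2.14 at 4 h, and *Adipoq* was well above background only there, while *Lipe* and *Pparg* had -0.47 and -0.15. The macrophage marker *Cd68* had 2.08, while *Itgam* and *Csf1r* had 0.57 and 0.28, with *Ptprc* and *Emr1* undetected throughout, and the epithelial keratin *Krt8* had 1.17, with *Epcam*, *Cdh1*, *Krt18* and *Krt19* not well above background on any. The hepatocyte marker *Serpina1a* had 0.95 and 1.29 on its probes at 4 h, and 0.71 and 0.83 at 32 h, so it was not high at 4 h alone. *Alb* was well above background at 4 h and 20 h only, and *Apoa1*, *Ttr* and *Hnf4a* on no array. At 4 h 4 of 8 adipocyte, 3 of 5 macrophage, 2 of 5 hepatocyte and 1 of 5 epithelial markers were well above background. In the control these counts were 3, 3, 1 and 1. Such calls rose over the whole array too, from 53.4% of its 39429 probes in the control to 59.1% at 4 h. The counts alone therefore do not set the marker lists apart. The summed linear signals of these lists, in multiples of the 75th percentile, were 0.68, 33.4, 0.36 and 1.25 at 4 h, and 0.30, 21.9, 0.21 and 0.58 in the control. A sum is led by its brightest probe, and most of the macrophage sum was *Itgam*, at a log2 signal of 4.92 at 4 h and 4.35 in the control. Another *Itgam* probe had a log2 ratio of 0.21 at 4 h, and the remaining one was well above background only there. The other measured *Csf1r* probe had -0.04, and the other *Cd68* probe was not well above background in the control. The part of these markers in the 4 h values of *Fasn* and *Acaca* was not tested.

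The elongase *Elovl6* had the widest swing of the 10 genes between 4 h and 32 h. Its signal was 1.57 in the control, 0.68 at 4 h, 2.42 at 20 h and 2.86 at 32 h. The log2 ratios to the control were -0.89 ± 0.20, 0.84 ± 0.20 and 1.29 ± 0.20, and between 4 h and 32 h the signal differed 4.54-fold. At 32 h it was 2.45-fold above the control, and 97 of 19969 probes were at least as high. At 4 h 1962 of 20392 probes were at least as low, so this value was not unusual on that array. With the 5 other scalings the 4 h ratio was between -1.30 and -0.92, and it was past 2-fold with 4 of them.

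*Elovl5* had the same order at 4 h and 20 h but was not higher still at 32 h. Its signal was 1.21 in the control, 0.52 at 4 h, 1.88 at 20 h and 1.73 at 32 h. The log2 ratios were -0.69 ± 0.20, 0.67 ± 0.20 and 0.52 ± 0.20, and the values at 20 h and 32 h differed by less than the spot error (0.16 ± 0.20).

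Among the stearoyl-CoA desaturases, *Scd2* was well above the control late and *Scd1* only slightly. *Scd2* read 5.02 in the control, 4.92 at 4 h, 5.95 at 20 h and 6.15 at 32 h. Its log2 ratio was -0.10 ± 0.20 at 4 h, within the spot error, then 0.93 ± 0.20 and 1.13 ± 0.20, or 2.19-fold at 32 h, where 141 of 19969 probes were at least as high. *Scd1* read 1.36, 0.90, 1.33 and 1.74 in the same order. It was below the control at 4 h (-0.46 ± 0.20), level with it at 20 h (-0.03 ± 0.20, a value that turned positive with 3 of the 5 other scalings) and above it at 32 h (0.38 ± 0.20).

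The desaturases of polyunsaturated chains also ended above the control. *Fads2* had a pair of probes 25469 bases apart on the minus strand of mm9 chr19, and they gave the same picture. The brighter (A_65_P20641) read -0.89 in the control, -1.32 at 4 h, -0.15 at 20 h and 0.19 at 32 h, and the dimmer (A_66_P130115) read -3.23, -3.70, -2.44 and -2.22. Both were lowest at 4 h and highest at 32 h. The log2 ratios were -0.43 ± 0.21 and -0.47 ± 0.26 at 4 h, 0.73 ± 0.21 and 0.79 ± 0.23 at 20 h, and 1.07 ± 0.21 and 1.01 ± 0.24 at 32 h. *Fads1* stayed closer to the control, with signals of 1.38, 1.23, 1.65 and 1.92 and log2 ratios of -0.15 ± 0.20, 0.27 ± 0.20 and 0.54 ± 0.20.

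**Figure D3:**
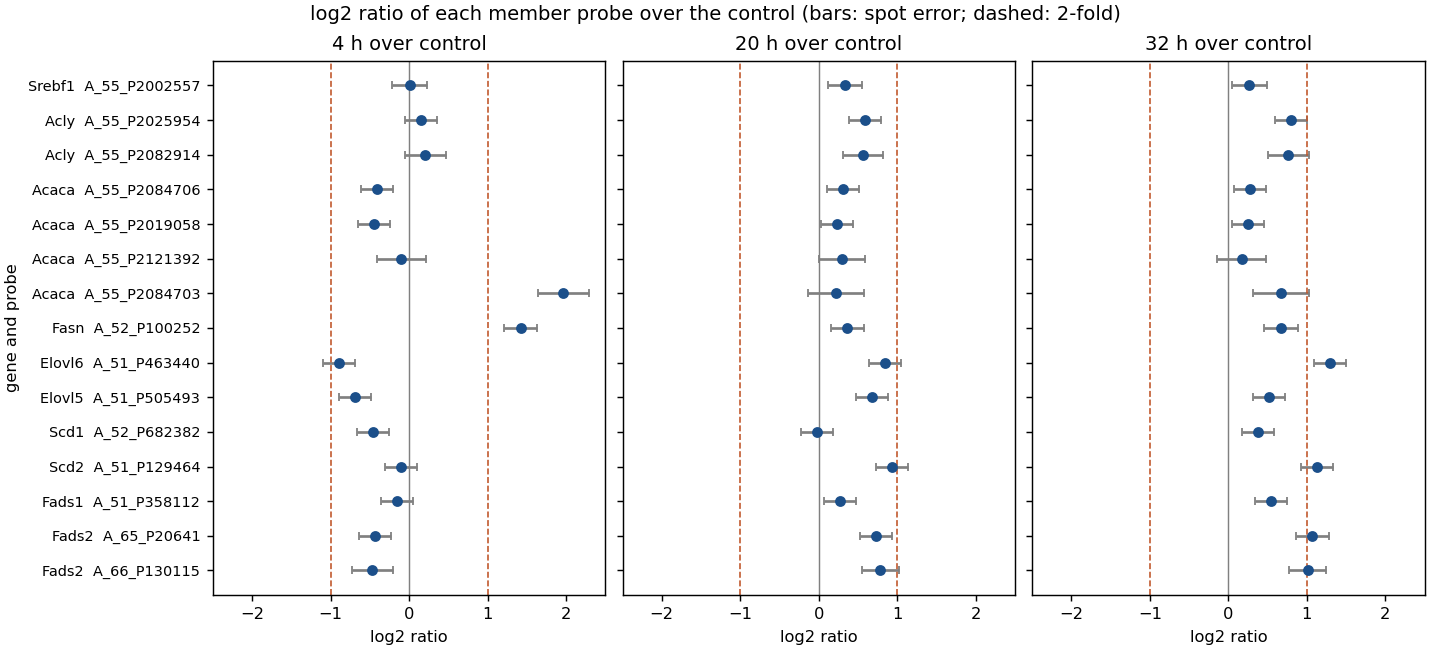
log2 ratio over the control of each of the 15 probes at 4 h, 20 h and 32 h; points are single arrays against the control array, bars the spot error, and dashed lines 2-fold. At 32 h *Elovl6*, *Scd2* and both *Fads2* probes lie past 2-fold, and at 4 h only *Fasn* and A_55_P2084703 of *Acaca* do.

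Several members crossed the control between 4 h and 32 h. By more than the spot error on each side, 7 of the 15 probes, of 5 genes (*Acaca*, *Elovl6*, *Elovl5*, *Scd1* and *Fads2*), were below the control at 4 h and above it at 32 h, where 6.9% of 19731 probes well above background on these 3 arrays were. Both ratios share the control array, and the difference between the hours was not tested. Between 20 h and 32 h, which the study sampled to look for circadian changes, the members differed little. None of the 15 was 2-fold apart, where 0.193% of 20247 probes were at least 2-fold higher at 20 h and 0.449% at least 2-fold lower. The log2 ratio of 20 h over 32 h ranged from -0.45 (A_55_P2084703 of *Acaca*, and *Elovl6*) to 0.16 (*Elovl5*), with a median of -0.21. It was below 0 by more than the spot error in 8 probes, as in 9.38% of all probes measured at both hours, and above it in 0, as in 8.71%. Without scaling these counts were 2 (*Elovl6* and *Scd1*) and 2. The median of all measured probes then moved by 0.15 as well, and the shares of all probes without scaling are not given here.

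The stretch before the transcription start was read for the members with an entry in RefSeq (GRCm38.p6), which were 7 of the 10 with 9 starts in all. *Fads1*, *Scd1* and *Scd2* had none. Each window held the 250 bases before the start, and both strands were searched for 5 motifs. The sterol regulatory element TCACNCCAC, to which SREBP proteins are known to bind, was in 0 of the 9 windows and in 1.05% of all 32851 windows. The core of the antioxidant response element, TGACNNNGC, was also in 0, against 10.2% of all windows. At such shares, 9 windows are too few for 0 matches to show a lack of either site. Looser forms of the motifs were not searched. The CCAAT box, read by the factor NF-Y, was in 4 of the 9 windows, of *Elovl5*, *Srebf1* and *Fasn*, against 33.8% of all windows. The GC box GGGCGG was in 4, of *Srebf1*, *Acly* and *Fads2*, against 32.7%. The E-box CACGTG, which BMAL1:CLOCK and other factors can bind, was in 1, of *Elovl5*, against 6.02%. A match is only a run of letters, and these motifs do not overlap each other here except where CCAAT meets its own reverse.

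The windows of *Fasn*, highest at 4 h, and of *Elovl5* and *Elovl6*, both lowest at 4 h, are shown to set these members side by side, with the CCAAT box on either strand in capitals.
Fasn, chr11:120824548-120824797, minus strand: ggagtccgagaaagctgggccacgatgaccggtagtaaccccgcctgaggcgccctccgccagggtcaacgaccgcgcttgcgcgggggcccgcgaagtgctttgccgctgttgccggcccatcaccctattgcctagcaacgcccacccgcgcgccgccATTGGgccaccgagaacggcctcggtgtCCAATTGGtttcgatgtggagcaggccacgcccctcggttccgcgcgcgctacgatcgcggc
Elovl5, chr9:77917115-77917364, plus strand: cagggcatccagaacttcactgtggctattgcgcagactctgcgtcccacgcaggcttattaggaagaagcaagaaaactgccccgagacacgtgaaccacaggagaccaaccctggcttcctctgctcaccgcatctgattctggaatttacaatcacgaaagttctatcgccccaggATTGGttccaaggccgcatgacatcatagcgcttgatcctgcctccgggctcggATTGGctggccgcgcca
Elovl6, chr3:129532136-129532385, plus strand: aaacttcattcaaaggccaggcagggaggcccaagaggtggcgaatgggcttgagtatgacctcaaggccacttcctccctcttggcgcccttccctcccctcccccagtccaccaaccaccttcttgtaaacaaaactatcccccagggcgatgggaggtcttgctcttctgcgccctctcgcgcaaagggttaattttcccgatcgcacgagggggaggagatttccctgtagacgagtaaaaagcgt
The *Fasn* window holds 3 matches, which begin 90, 62 and 59 bases before the start, the last pair overlapping. The *Elovl5* window holds 2, which begin 71 and 17 bases before the start, and its E-box begins 161 bases before it. The *Elovl6* window holds none of the 5 motifs.

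Genes around the pathway were taken from lists, with the brightest probe of each gene. Over all genes with a measured ratio, 8.25% were at least 2-fold higher and 8.14% at least 2-fold lower at 4 h, 0.729% and 2.18% at 20 h, and 1.08% and 1.62% at 32 h. Between 20 h and 32 h they were 0.16% higher and 0.454% lower at 20 h. The all-gene medians were 0.17, -0.0010 and -0.00064 at 4 h, 20 h and 32 h. On the same footing, the 10 members had medians of -0.28, 0.48 and 0.60, with 1, 0 and 3 genes at least 2-fold higher and 0 lower at each hour.

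Of the 13 regulators of SREBP and LXR and their partners, 11 were measured in each comparison with the control. By the brightest probe, only *Insig1* was past 2-fold, and at all 3 hours, with log2 ratios of 1.49, 1.56 and 1.74. Its product holds SREBP precursors in the endoplasmic reticulum, and the gene is itself a known SREBP target. *Srebf2* had 0.87, 0.97 and 0.72 on its brighter probe and 1.25, 0.79 and 0.84 on the other. *Mlxipl* had 0.55, -0.39 and -0.31 on its brighter probe, and 1.39 at 4 h on the other. The list medians were 0.02, 0.20 and 0.23. *Thrsp* stayed at background on the 4 arrays, and *Nr1h3*, which encodes an LXR, was well above background at 4 h and 20 h and not in the control or at 32 h.

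Of 25 listed names of other synthesis, elongation and desaturation enzymes, 21 were on the array and 15 were measured in each comparison with the control. At 20 h and 32 h *Acss2*, which makes acetyl-CoA from acetate, was the only one at least 2-fold higher, with log2 ratios of -0.55, 1.14 and 1.53 at the 3 hours on its brighter probe and -0.12, 0.47 and 0.82 on the other. *Olah*, a thioesterase that releases medium chains from fatty acid synthase, was higher at 4 h (1.75) and 2-fold lower at 20 h than at 32 h (-1.22). The citrate carrier *Slc25a1* had -0.56, 0.55 and 0.68, and the muscle-type carboxylase *Acacb* had 0.53, 0.04 and 0.30. *Scd3*, a paralog of *Scd1*, had unlike probes (0.65, -0.55 and -0.63 on the brightest and -0.41, 0.03 and 0.25 on another). The list medians were 0.07, 0.12 and 0.29. With spike-in scaling the 4 h medians of this list and of the regulators were -0.34 and -0.38, so neither has a direction at 4 h.

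The 4 genes of NADPH supply split by hour. *Pgd* of the pentose phosphate pathway had 1.15 at 4 h (0.75 to 1.03 with the 5 other scalings, past 2-fold with 1) and was near the control later (-0.06 and -0.12), and *Me1*, malic enzyme, had 0.91, 0.05 and -0.20. *Idh1*, the cytosolic isocitrate dehydrogenase, had the late order instead, with -0.29, 1.10 and 1.25. *G6pdx* was near the control throughout, with -0.13, -0.18 and -0.04.

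Cholesterol synthesis and uptake, which SREBP proteins are also known to drive, was further above the control at the late hours. Of 20 genes measured, 17 were at least 2-fold higher at 20 h and 18 at 32 h, with medians of 1.21 and 1.53, against 0 and 3 of the 10 fatty acid genes. These counts rest on the brightest probes. Another *Mvk* probe had 0.94 and 0.97, and *Hsd17b7* had 0.21 and 0.47 on A_55_P1964598, and 1.19 and 1.42 on A_52_P566605. Other probes of *Pmvk* and *Tm7sf2* were past 2-fold at both hours, and that of *Nsdhl*, like its brightest, at 32 h only. *Hmgcs1*, the synthase of the mevalonate pathway, had log2 ratios of -0.29, 1.38 and 1.72, and *Idi1* had 0.84, 1.73 and 2.03. The widest late value in that list was 3.05 for *Tm7sf2*, a sterol reductase, at 32 h. At 4 h the list median was 0.44, with 1 gene at least 2-fold higher (*Tm7sf2*, 1.37, and 0.97 with spike-in scaling) and 2 lower (*Mvk*, -1.28, and *Dhcr7*, -1.41), and with spike-in scaling that median was 0.03. Between 20 h and 32 h all 20 were lower at 20 h, none of them 2-fold, with a median of -0.30 against -0.24 for the 10 members. Whether the lists differ was not tested, since genes are not replicates of a condition.

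**Figure D4:**
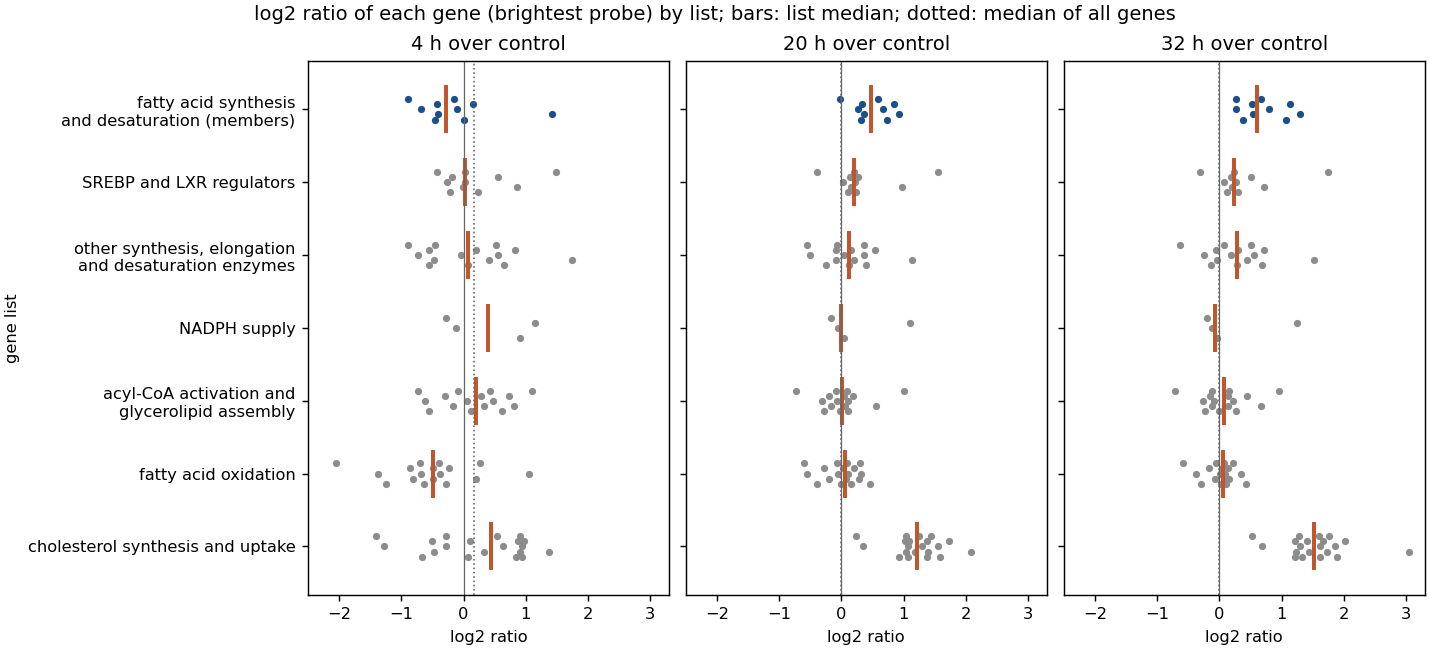
log2 ratio over the control of each gene (1 point, brightest probe, both arrays well above background) by list at 4 h, 20 h and 32 h; the points within a list are spread vertically only for legibility, orange bars are list medians, and dotted lines the median of all genes. At 32 h the member median was 0.60 and the cholesterol list median 1.53, and the other lists lay between -0.08 and 0.29.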

How the data were processed

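Total RNA of NIH-3T3:Per2-Luc fibroblasts was labelled with Cy3 and hybridized to 4 one-color Agilent arrays, 1 per condition. Per the labels, the authors extracted spot intensities with Agilent Feature Extraction 10.7.3.1. The deposited intensities had background subtracted. A further deposited table, which equals these intensities over an array-wide constant (1125, 929, 1414 and 1266), is on a linear scale without centring (column medians 0.059, 0.076, 0.055 and 0.059) and served as an alternative. Probe positions are on mm9 per the file headers. The paired SAM test named in the methods could not be repeated with 1 array per condition.

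From the deposited intensities, log2 signals were averaged over the spots of a probe without an outlier flag (125 to 161 spots per array left out), and the 75th percentile over 39429 probes was subtracted. The 75th percentiles lay -0.28, 0.33 and 0.18 from the control before scaling. A probe was called well above background when at least 50% of its spots were. Ratios were measured where both arrays met this, and the threshold was 2-fold. Where only 1 array did, a bound was formed, and bounds entered no count or median. The median spot error of detected probes was near 10.1% per array, and precision is limited by having so few arrays. Bright member probes had nearly the same error of 0.20 on a log2 ratio. For them the spot error was thus close to a fixed cutoff. The members and lists were chosen with earlier results of these data known. All member probes were named. From the lists, genes past 2-fold against the control or between 20 h and 32 h were named, and a few others (*Srebf2*, *Mlxipl*, *Slc25a1*, *Acacb*, *Scd3*, *Me1*, *G6pdx*, *Thrsp*, *Nr1h3*) were named after their values were seen. Cholesterol genes past 2-fold are given as counts with examples. For *Srebf1*, the rule took the 3 genes with the nearest ratios, and a result that needs an item withheld for evaluation is not reported here. Sequences before the start came from RefSeq tables (GRCm38.p6), and no coordinates were moved between builds. No annotation of mm9 was used, so the exon or untranslated region of a probe is not analysed here. Python 3.11.15, numpy 2.4.6, pandas 2.3.3, R 4.3.3 and limma 3.58.1 were used, and the steps were tested on simulated data.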

Additional observations from a re-analysis of the deposited data

Results flagged for a closer look

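The members below were on opposite sides of the control at 4 h and at 32 h by more than the spot error, also with each of the 5 other scalings. With 1 array per condition this difference between the hours was not tested, and both ratios share the control array. The overlapping *Acaca* probes stood at -0.41 and then 0.27 on the log2 scale (A_55_P2084706) and at -0.45 and then 0.25 (A_55_P2019058), for 4 h and 32 h in this order. *Elovl6* had -0.89 and 1.29, and *Elovl5* had -0.69 and 0.52. *Scd1* had -0.46 and 0.38. The *Fads2* probes had -0.43 and 1.07 (A_65_P20641) and -0.47 and 1.01 (A_66_P130115). With normexp background correction, 6 probes were below the control at 4 h by more than the spot error. Only 1 *Fads2* probe was among them.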

How the results depend on the processing

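The counts past 2-fold and the medians of the 15 member probes were recomputed under 12 planned settings and, chosen after seeing the data, spike-in scaling without the control probe furthest from the others and a correction for the GC content of the probe. Of 160 such values, 138 stayed within 1.5 times the count or within the spot error of the median, and none of the log2 ratios past 2-fold changed sign. The median at 4 h, -0.15, was -0.52 with median scaling, -0.47 with quantile normalization, -0.56 with spike-in scaling, -0.55 without 1 spike-in probe and -0.44 without scaling. The median at 20 h, 0.37, was 0.70 without scaling. The count lower at 4 h, 0, was 2 with median scaling, with spike-in scaling, without 1 spike-in probe and at 1.5-fold, and 1 without scaling and with a 75th percentile taken over probes found on every array. The count higher at 4 h was 1 at 3-fold. The count higher at 20 h, 0, was 1 with median scaling, quantile normalization and without 1 spike-in probe, 2 with spike-in scaling, 5 without scaling and 6 at 1.5-fold. The count higher at 32 h, 4, was 2 with normexp background correction, 8 at 1.5-fold and 0 at 3-fold. With normexp background correction 0.51% of 19969 measured probes were at least 2-fold higher at 32 h, against 1.05% without it. The shares of all probes at 1.5-fold and 3-fold are not given here. These settings change the zero point of an array, the threshold or the dim signals by construction. No paired analysis was possible because each condition had 1 array. No replicate could be left out. The dimmest probes (*Acaca* A_55_P2084703 and A_55_P2121392) carry the widest spot errors.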

Other observations

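Fatty acid oxidation, the pathway that breaks down what the members build, was mostly below the control at 4 h. Of 18 genes on the array, 17 were measured at 4 h, 14 of them (82.4%) below the control, with a median of -0.49, where 39.5% of 15806 genes were below it. *Acads*, the short-chain acyl-CoA dehydrogenase, had a log2 ratio of -2.05, and *Cpt1a* and *Cpt2*, which carry acyl groups into mitochondria, had -1.38 and -1.24. The other probe of *Cpt1a* had -0.96 and that of *Cpt2* -0.51. *Cpt1b*, the muscle form, had 1.06, and 0.66 to 0.94 with the 5 other scalings. At 20 h and 32 h the 18 genes had medians of 0.05 and 0.06 and none was 2-fold apart.

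Genes that activate fatty acids and assemble glycerolipids stayed nearer to the control. The 16 genes had medians of 0.20, 0.01 and 0.07, and the first was -0.21 with spike-in scaling. *Lpin1*, a phosphatidate phosphatase, had 1.10 at 4 h and was near the control later (0.06 and 0.15). The 4 h value was 0.70 to 1.03 with the 5 other scalings, past 2-fold with 1 of them. *Acsl3*, an acyl-CoA synthetase, had 0.73, 1.01 and 0.96.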
